A study of Homo sapiens with 3 samples.

Results

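The annexin genes were described in RNA-seq libraries of MTAC-P cells, an EGFR-TKI resistant line that derives from the lung cancer line PC9. A TKI is a tyrosine kinase inhibitor. The members are 10 named genes, ANXA1, ANXA2, ANXA3, ANXA4, ANXA5, ANXA6, ANXA7, ANXA8, ANXA8L1 and ANXA11, out of 26562 genes in the files, selected on their summed FPKM in these same libraries, so their levels and differences are a description. The groups are shBCAT1, cells with a short hairpin against BCAT1 (2 libraries), and control, cells with a hairpin against luciferase (1 library, titled MTAC-shLuciferace). All were grown in DMEM with fetal bovine serum. Whether shBCAT1 1 and shBCAT1 2 stand for separate hairpins or separate cultures is not in the labels. Each was therefore set against the control on its own, and p-values measure only how these libraries spread, possibly for technical reasons.

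Annexins are cytosolic proteins that bind acidic phospholipids of membranes when calcium rises. Each has a conserved core that holds the calcium sites and a variable tail at its start, through which several members bind small S100 proteins. They are known for linking membranes to actin, for vesicle transport and for closing wounds in the plasma membrane, and epithelial cells and carcinomas usually carry several of them.

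Levels are in FPKM, which relates fragments to transcript length and to all mapped fragments, summed over the RefSeq transcripts of a gene, with confidence bounds that cover the estimate within 1 library and no spread between libraries. FPKM summed to between 44312 and 53898 per library, read totals are unknown, and the median SD of a tested gene was 12.5% to 13.6% of its value. BCAT1, the targeted gene, stood at 1.05 FPKM (bounds 0.835 to 1.27) in the library labelled shBCAT1 1 and 0.241 FPKM (0.158 to 0.325) in that labelled shBCAT1 2, against 0.213 FPKM (0.129 to 0.297) in the control. The target thus was not lower in either. In the library labelled shBCAT1 1 it was 4.96 times the control with bounds apart, and in that labelled shBCAT1 2 it overlapped the control. Every direction given is therefore between libraries as labelled. All 6 epithelial markers examined reached a mean of 1 FPKM, with summed levels of 786 and 1092 FPKM in the libraries labelled shBCAT1 1 and 2 against 937 FPKM in the control. Markers of alveolar type II cells summed to 0.0571 and 0.159 FPKM in the libraries labelled shBCAT1 1 and 2 against 0.324 FPKM in the control, with 2 of 6 at 0 throughout. No fibroblast, endothelial, leukocyte or hepatocyte marker exceeded 0.259 FPKM in any library, and PTPRC, the pan-leukocyte marker, was listed at 0 in each. In bulk RNA, fewer cells with a transcript and less of it per cell cannot be told apart.

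ANXA8 and ANXA8L1 are near copies on chromosome 10, and their sequences decide how their values can be read. ANXA8 encodes annexin A8, known from epithelia and late endosomes, and ANXA8L1 a closely similar protein. Both are called annexin A8 genes here. In hg38, ANXA8 lies at 47467994 to 47484158 on the minus strand and ANXA8L1 at 46375590 to 46391783 on the plus strand. In GENCODE release 29 their main coding sequences have 981 bases each and differ at 5 positions, an identity of 99.5%, and the longest stretch without a difference has 408 bases. Counted from the first coding base, with the base of ANXA8 first, the differences are T16G, C276T, A528G, G530C and T939C. The stretch that holds most of them within 120 bases, positions 411 to 530, is shown because it has 2 of the 5, in capitals; all other letters are the same in both genes.
ANXA8 (chr10:47474967-47476233, minus strand, spliced): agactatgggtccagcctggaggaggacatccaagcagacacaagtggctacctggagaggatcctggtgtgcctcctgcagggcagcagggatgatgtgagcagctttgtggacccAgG
ANXA8L1 (chr10:46383545-46384811, plus strand, spliced): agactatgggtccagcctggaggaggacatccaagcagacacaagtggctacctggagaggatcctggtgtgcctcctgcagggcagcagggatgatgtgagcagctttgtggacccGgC
A fragment of the coding sequence outside the differing positions matches both genes, and the untranslated parts were not compared. The split of the value between them is therefore read with care, and their sum is given beside each.

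In the library labelled shBCAT1 2 the annexin A8 genes stood highest above the control of all members. ANXA8 was at 1.96 FPKM (bounds 0 to 4.11) in the library labelled shBCAT1 1 and 5.65 FPKM (4.76 to 6.54) in that labelled shBCAT1 2, against 1.80 FPKM (1.09 to 2.51) in the control. ANXA8L1 was at 2.46 FPKM (1.74 to 3.18) in the library labelled shBCAT1 1 and 7.04 FPKM (3.99 to 10.1) in that labelled shBCAT1 2, against 2.31 FPKM (1.72 to 2.90) in the control. For both genes the library labelled shBCAT1 2 lay apart from the control, while the library labelled shBCAT1 1 overlapped it. Their sum was 4.42 FPKM (2.14 to 6.69) and 12.7 FPKM (9.51 to 15.9) in the libraries labelled shBCAT1 1 and 2, against 4.11 FPKM (3.18 to 5.04) in the control. The sum was thus 1.08 and 3.09 times the control, and the sum with the label shBCAT1 2 was 2.87 times that with shBCAT1 1. ANXA8 stood to ANXA8L1 at a ratio of 0.796 and 0.802 in the libraries labelled shBCAT1 1 and 2 and 0.780 in the control.

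The log2(FPKM + 1) difference of the library labelled shBCAT1 2 from the control was 1.25 for ANXA8 and 1.28 for ANXA8L1, and they ranked 20 and 17 from the top of 3889 genes whose mean reached 1 FPKM. A difference of 1 or more on this scale was found for 23 of these genes (0.591%). In the library labelled shBCAT1 1 the differences were 0.08 and 0.07. The mean difference did not pass the test of limma, a linear model fitted over all genes, with 0.66 ± 0.54 (SE) for ANXA8 and 0.67 ± 0.56 for ANXA8L1 and an adjusted p of 0.839 each. Over the other processing settings tried, the difference of the library labelled shBCAT1 2 stayed between 0.65 and 2.07 for ANXA8 and between 0.72 and 1.57 for ANXA8L1. With transcripts kept apart, the main transcript of ANXA8L1 was below the control in the library labelled shBCAT1 1, at -0.39, and that of ANXA8 above it, at 0.80. The keratin genes KRT8 and KRT18 of the epithelial list had bounds above the control's with the label shBCAT1 2 and below them with shBCAT1 1. KRT8 was at 256 and 410 FPKM in the libraries labelled shBCAT1 1 and 2, against 295 FPKM in the control. KRT18 was at 175 and 262 FPKM, against 213 FPKM in the control. KRT7 differed from them, at 262 and 305 FPKM against 320 FPKM in the control, with bounds below the control's in both libraries. KRT19 was at 87.7 and 109 FPKM, against 104 FPKM in the control. Its bounds lay below the control's with shBCAT1 1 and overlapped them with shBCAT1 2. EPCAM and CDH1 overlapped the control in both. Over the 6 epithelial markers 2 had bounds above the control and 1 below in the library labelled shBCAT1 2. Of the 3889 genes, 7.35% had bounds above and 7.66% below there. With the label shBCAT1 1, 0 of the 6 markers had bounds above and 4 below, beside 1.65% and 7.61% of the 3889 genes. The part of these markers in the annexin A8 values was not tested.

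The transcripts that carried the FPKM of the annexin A8 genes differed between libraries in the deposited split. The ANXA8 transcript with the 981-base coding sequence is NM_001040084. It held 85.6% and 96.6% of the gene's FPKM in the libraries labelled shBCAT1 1 and 2, against 29.8% in the control. Its level with shBCAT1 1 was 1.68 FPKM (0.115 to 3.24), which overlapped the control's 0.537 FPKM (0.0480 to 1.03). With shBCAT1 2 it was 5.46 FPKM (4.60 to 6.32), apart from the control. The rest of the control's value, 70.2%, lay on NM_001271703, whose coding sequence has 795 bases, and this transcript was near 0 in both others (upper bounds 0.0771 and 0.0730 FPKM). The main transcript of ANXA8L1, NM_001098845, was at 1.52 and 6.40 FPKM in the libraries labelled shBCAT1 1 and 2, against 2.31 FPKM in the control. As the coding sequences of both genes are nearly the same, shifts between these transcripts are read with care.

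**Figure D1:**
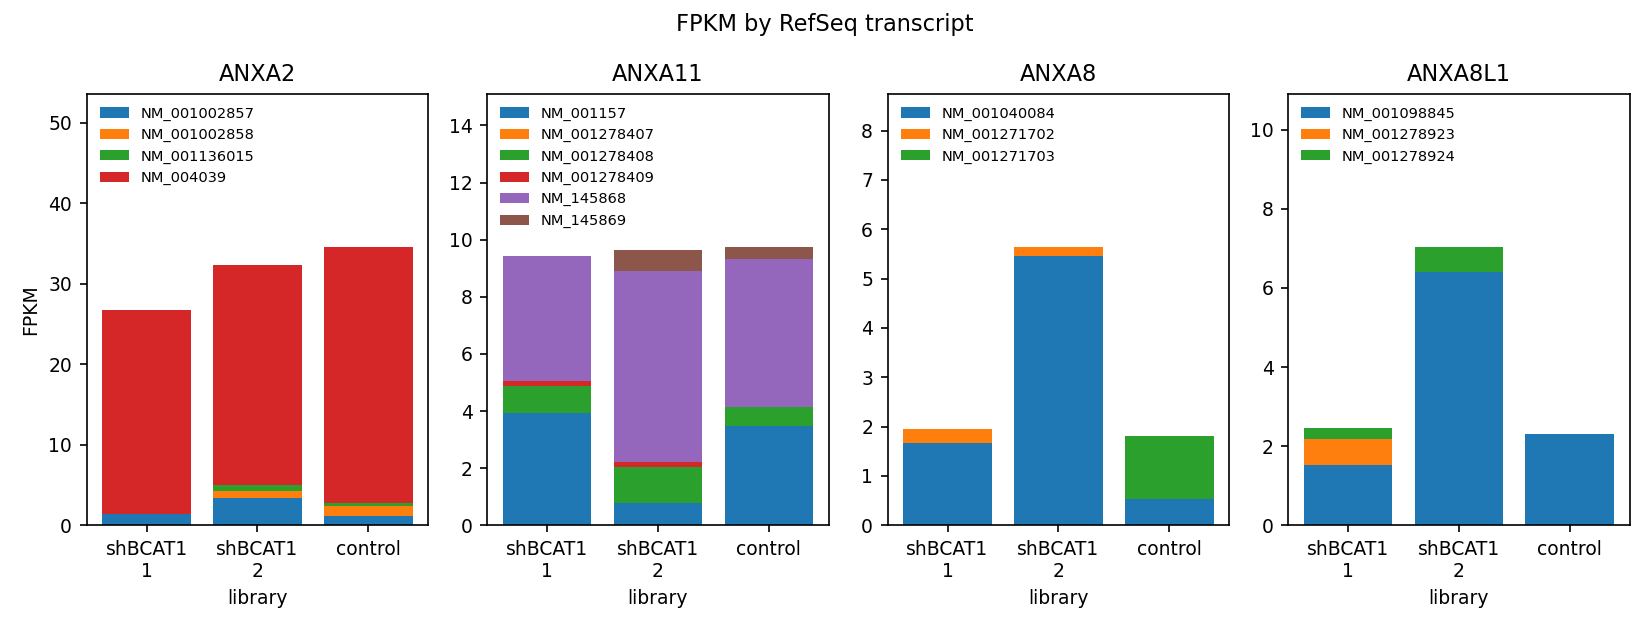
FPKM (vertical axes, linear, each gene on its own scale) of 4 annexin genes in the libraries labelled shBCAT1 1 and shBCAT1 2 and in the control, stacked by RefSeq transcript. ANXA2 rests mostly on NM_004039 in all 3 libraries, and ANXA8 and ANXA8L1 are tallest in the library labelled shBCAT1 2, at 5.65 and 7.04 FPKM.

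ANXA3, an annexin abundant in neutrophil granules and also expressed in epithelial tumours, was the remaining member above the control's bounds. It lies on chromosome 4, 78551588 to 78610451, plus strand. It was at 0.775 FPKM (0.399 to 1.15) in the library labelled shBCAT1 1 and 1.64 FPKM (1.11 to 2.17) in that labelled shBCAT1 2, against 0.611 FPKM (0.272 to 0.949) in the control. The library labelled shBCAT1 2 alone lay apart from the control, at 2.68 times its level. The log2(FPKM + 1) differences were 0.14 and 0.71, and the fitted mean was 0.43 ± 0.30 (SE; limma adjusted p 0.805). With a mean of 1.01 FPKM, ANXA3 entered the tested genes only through that library, while ANXA4, at a mean of 0.518 FPKM, did not enter.

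ANXA2 was the most abundant annexin in every library. Its protein pairs with S100A10, links membranes to actin and gathers plasminogen at the cell surface. The gene lies on chromosome 15, 60347151 to 60397986, minus strand. It was at 26.8 FPKM (24.4 to 29.2) in the library labelled shBCAT1 1 and 32.4 FPKM (29.7 to 35.1) in that labelled shBCAT1 2, against 34.6 FPKM (31.8 to 37.4) in the control. The library labelled shBCAT1 1 was below both others with bounds apart, while that labelled shBCAT1 2 overlapped the control. The log2(FPKM + 1) differences from the control were -0.36 and -0.09, which became 0.04 and 0.32 with quantile normalization, so their direction depends on scaling. The fitted mean was -0.23 ± 0.21 (SE; limma adjusted p 0.842).

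ANXA2 has processed copies elsewhere in the genome. Over 1017 aligned bases its coding sequence is 98.4% identical to ANXA2P2 on chromosome 9, with 16 differences. Coding positions 101 to 220 of ANXA2, a stretch of 120 bases that holds 5 of them, in capitals, are shown to compare the copies.
ANXA2 (chr15:60364452-60382389, minus strand, spliced): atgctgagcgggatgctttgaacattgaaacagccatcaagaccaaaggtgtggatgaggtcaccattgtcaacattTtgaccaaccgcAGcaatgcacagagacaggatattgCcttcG
ANXA2P2 (chr9:33624374-33624493, plus strand): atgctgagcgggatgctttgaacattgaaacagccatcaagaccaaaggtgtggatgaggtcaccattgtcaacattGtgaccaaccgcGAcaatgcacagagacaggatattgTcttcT
ANXA2P2 was at 0.0583 and 0.0276 FPKM in the libraries labelled shBCAT1 1 and 2, against 0.210 FPKM in the control, so little of the signal was assigned to it. The other copies, ANXA2P1 and ANXA2P3, are 93.8% and 92.2% identical over the bases aligned and reached at most 0.0292 FPKM.

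Of the ANXA2 transcripts, NM_004039 held 94.7% and 84.7% of the gene's FPKM in the libraries labelled shBCAT1 1 and 2, against 92.1% in the control. NM_001002857, which has the same coding length of 1017 bases and 1 more exon, was at 1.42 FPKM (0.723 to 2.12) in the library labelled shBCAT1 1 and 3.43 FPKM (2.39 to 4.46) in that labelled shBCAT1 2, against 1.12 FPKM (0.493 to 1.75) in the control. Its bounds in the library labelled shBCAT1 2 lay above those in both other libraries. NM_001002858, the transcript with the longer coding sequence of 1071 bases, had an upper bound of 0.0907 FPKM with the label shBCAT1 1 and a level of 0.874 FPKM with shBCAT1 2, against 1.23 FPKM in the control.

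ANXA1, a calcium-binding mediator that glucocorticoids induce and a substrate of the EGFR kinase, was below the control in both libraries labelled shBCAT1. It lies on chromosome 9, 73151731 to 73170394, plus strand. It was at 4.50 FPKM (3.57 to 5.43) in the library labelled shBCAT1 1 and 5.03 FPKM (4.07 to 5.99) in that labelled shBCAT1 2, against 6.63 FPKM (5.48 to 7.78) in the control. The bounds of the library labelled shBCAT1 1 lay below the control's by a small margin, and those of the other overlapped them. The mean was 4.77 ± 0.38 FPKM (SD, n = 2), the fitted log2(FPKM + 1) difference -0.41 ± 0.20 (SE) and the limma adjusted p 0.797. Over the other settings the difference stayed between -0.55 and -0.28 in the library labelled shBCAT1 1 and between -0.39 and -0.21 in that labelled shBCAT1 2.

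ANXA11, which binds S100A6 and the calcium sensor ALG-2 and tethers RNA granules to lysosomes in neurons, was the second most abundant member. It lies on chromosome 10, 80155124 to 80205677, minus strand. Its level was 9.42 and 9.64 FPKM in the libraries labelled shBCAT1 1 and 2, against 9.75 FPKM in the control, and the bounds of all libraries overlapped. The fitted log2(FPKM + 1) difference was -0.03 ± 0.19 (SE; limma adjusted p 0.974), and its sign turned with both rescalings tried. The bounds in the library labelled shBCAT1 1 were wide, 1.66 to 17.2 FPKM, since NM_001157 and NM_145868 had bounds from 0 to 9.44 and from 0 to 9.83 there. NM_145868 held 46.4% and 69.4% of the FPKM in the libraries labelled shBCAT1 1 and 2, against 53.3% in the control. NM_001157 was at 0.772 FPKM (0.375 to 1.17) in the library labelled shBCAT1 2, below its 3.48 FPKM (2.51 to 4.45) in the control, while the gene's total was alike.

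ANXA7, or synexin, which fuses membranes in vitro and binds ALG-2, lay on either side of the control. On chromosome 10, 73375431 to 73414083, minus strand, it was at 1.60 FPKM (1.13 to 2.07) in the library labelled shBCAT1 1 and 2.74 FPKM (2.14 to 3.35) in that labelled shBCAT1 2, against 2.03 FPKM (1.49 to 2.56) in the control. Each library labelled shBCAT1 overlapped the control, and they lay apart from each other. The fitted difference was 0.04 ± 0.29 (SE; limma adjusted p 0.977).

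ANXA5, known as the probe for exposed phosphatidylserine, was at 1.99 FPKM (1.38 to 2.59) and 1.97 FPKM (1.38 to 2.55) in the libraries labelled shBCAT1 1 and 2, against 2.48 FPKM (1.79 to 3.16) in the control. The libraries labelled shBCAT1 differed less than for any other member, with a mean of 1.98 ± 0.014 FPKM (SD, n = 2), and both overlapped the control (limma adjusted p 0.839). The gene lies on chromosome 4, 121667997 to 121696992, minus strand.

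ANXA4 and ANXA6 were below 1 FPKM in every library. ANXA4, a member found in many epithelia, was at 0.299 FPKM (0.0998 to 0.499) and 0.535 FPKM (0.275 to 0.795) in the libraries labelled shBCAT1 1 and 2, against 0.720 FPKM (0.406 to 1.03) in the control. It lies on chromosome 2, 69741995 to 69826464, plus strand, and its bounds overlapped throughout. ANXA6, whose core is duplicated and which binds the Ras regulator p120GAP, was at 0.218 FPKM (0.0654 to 0.370) and 0.0438 FPKM (0 to 0.121) in the libraries labelled shBCAT1 1 and 2, against 0.299 FPKM (0.118 to 0.480) in the control. It lies on chromosome 5, 151100706 to 151157882, minus strand. In a fit of 16449 genes with no minimum level, the limma adjusted p was 0.852 for ANXA4 and 0.863 for ANXA6.

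**Figure D2:**
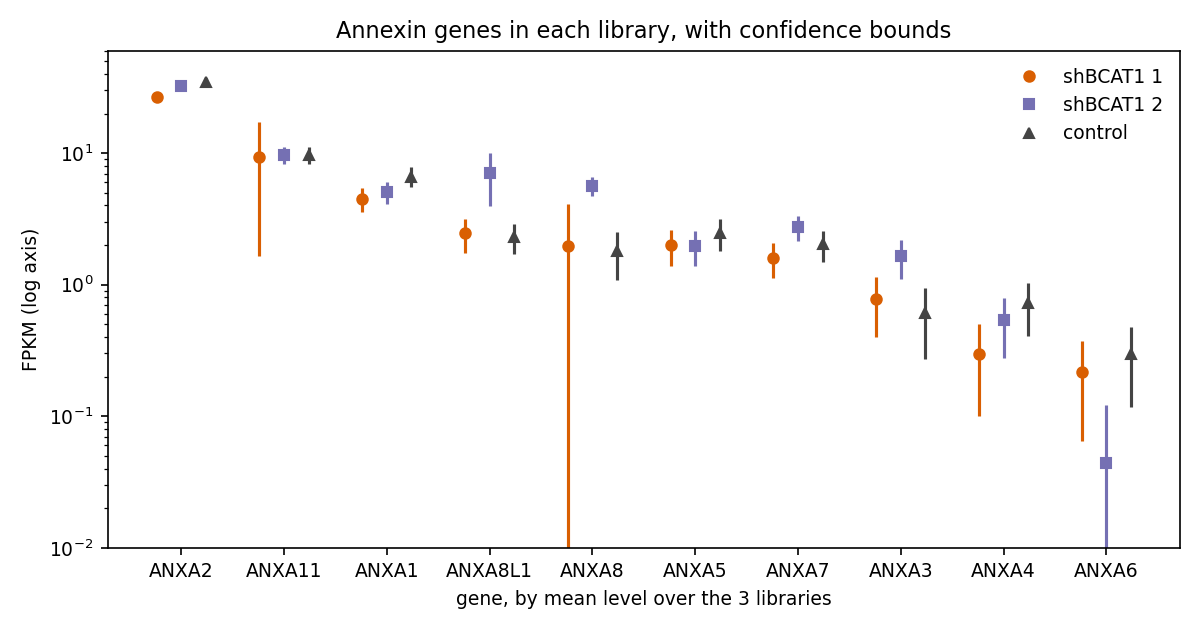
FPKM (vertical axis, log scale) of the 10 annexin genes, ordered by mean level, in the libraries labelled shBCAT1 1 and shBCAT1 2 and in the control. Points are values and lines the confidence bounds, drawn down to 0.01 where they reach lower; ANXA2 is highest in each library and ANXA8L1 and ANXA8 stand apart in the library labelled shBCAT1 2.

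In the order of levels, ANXA2 led in every library, at 53.6% and 48.6% of all annexin FPKM in the libraries labelled shBCAT1 1 and 2 against 56.5% in the control. ANXA11 came next throughout, and its bounds lay above those of ANXA1 with the label shBCAT1 2 and also in the control. In the control ANXA1 came after it, and ANXA5, ANXA8L1, ANXA7 and ANXA8 followed with overlapping bounds. In the library labelled shBCAT1 2 ANXA8L1 and ANXA8 ranked above ANXA1, with bounds that overlapped its own. Together ANXA8 and ANXA8L1 made up 8.84% and 19.0% of annexin FPKM in the libraries labelled shBCAT1 1 and 2, against 6.71% in the control. All members summed to 50.01 and 66.7 FPKM in the libraries labelled shBCAT1 1 and 2, against 61.2 FPKM in the control, or 0.113%, 0.144% and 0.114% of each library's total.

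Read over all members, 3 were higher and 7 lower than the control with the label shBCAT1 1, and 4 were higher and 6 lower with shBCAT1 2. These comparisons share the control, and the annexin A8 genes count as 2 in each. Of the 8 members among the genes tested, 3 were higher and 5 lower with shBCAT1 1, and 4 higher and 4 lower with shBCAT1 2. Among 3889 genes tested, 31.1% were higher and 68.7% lower with shBCAT1 1, and 50.8% higher and 49.0% lower with shBCAT1 2. The median log2(FPKM + 1) difference of the 8 members tested came to -0.13 and 0.15 in the libraries labelled shBCAT1 1 and 2, beside -0.12 and 0.01 for the genes tested. With ANXA4 and ANXA6 included it was -0.16 and -0.05, so its sign with shBCAT1 2 turns on which low members are counted. ANXA3, counted among the 8 and as higher in both libraries, passed the minimum level only through the library labelled shBCAT1 2. Nothing is therefore read from the value of 0.15. Median-of-ratios scaling brought the value of -0.12 for the genes tested to -0.0059, and with it ANXA1 was at -0.34 in place of -0.47 in the library labelled shBCAT1 1.

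Bounds lay apart from the control's for 2 members in the library labelled shBCAT1 1, both lower and 0 higher, and for 3 in that labelled shBCAT1 2, all higher and 0 lower. Among 16449 genes above 0 in any library, 0.760% were higher and 2.23% lower by this measure with the label shBCAT1 1, and 3.25% higher and 2.19% lower with shBCAT1 2. Among the 3889 genes, which hold 8 members and all those with bounds apart, the shares were 1.65% higher and 7.61% lower with shBCAT1 1, and 7.35% higher and 7.66% lower with shBCAT1 2. Nothing is read from these shares about the members, since the same values chose them. Of the 3 members higher in the library labelled shBCAT1 2, ANXA8 and ANXA8L1 have nearly the same coding sequence and may share reads. They are not taken as separate observations. Of the 8 members tested, 0 rose and 0 fell at a limma adjusted p of 0.05, beside 0% and 0.360% of the 3889 genes, and 0 of the 8 had an unadjusted p under 0.05, beside 25 higher (0.643%) and 193 lower (4.96%) genes overall.

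**Figure D3:**
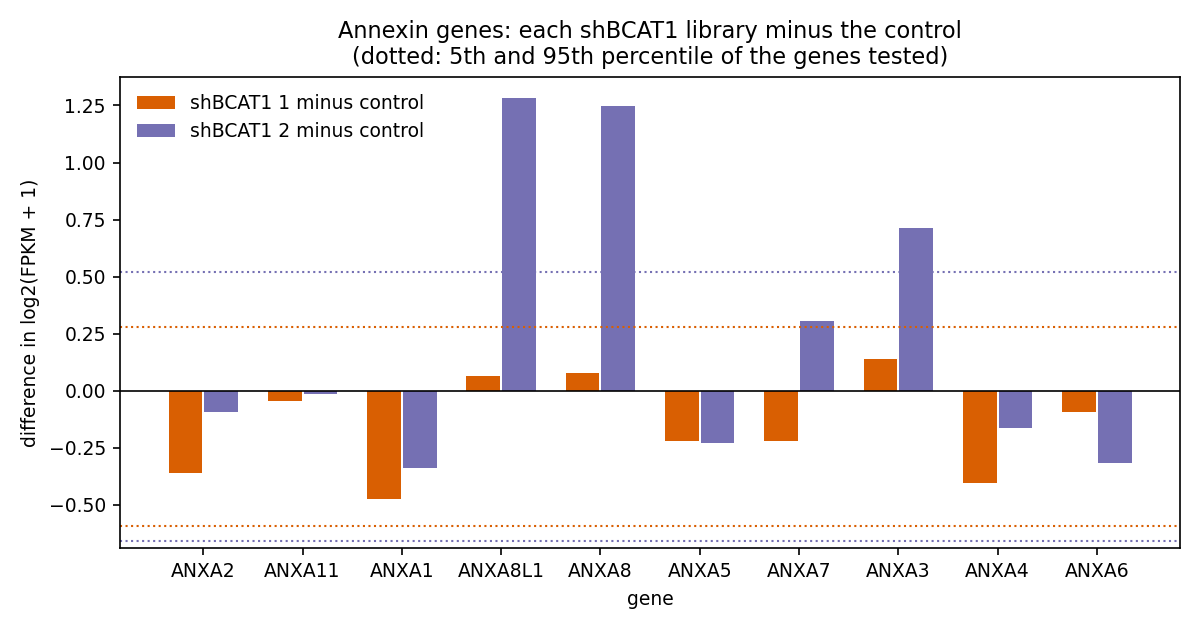
Difference in log2(FPKM + 1) from the control (vertical axis) of the 10 annexin genes in the libraries labelled shBCAT1 1 and shBCAT1 2. Dotted lines mark the 5th and 95th percentile of 3889 genes for each library; ANXA8L1, ANXA8 and ANXA3 exceed the upper line in the library labelled shBCAT1 2, at 1.28, 1.25 and 0.71, and no other member passes a line of its library.

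Set against each other, the libraries labelled shBCAT1 differed in 4 members with bounds apart, ANXA2, ANXA7, ANXA8 and ANXA8L1, each higher in the library labelled shBCAT1 2. Of the genes tested, 7.71% were higher and 1.83% lower in it by this measure, against 3.22% and 0.693% of those above 0. By value alone 8 members were higher in it and 2 lower, beside 68.0% and 31.7% of the genes tested, whose median difference was 0.11. The log2(FPKM + 1) differences of the library labelled shBCAT1 2 from the library labelled shBCAT1 1 were 1.22 for ANXA8L1, 1.17 for ANXA8, 0.57 for ANXA3, 0.53 for ANXA7 and 0.26 for ANXA2. ANXA8L1 and ANXA8 ranked 22 and 26 of 3889 from the top. ANXA11 and ANXA5 differed least, by 0.03 and -0.01.

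**Figure D4:**
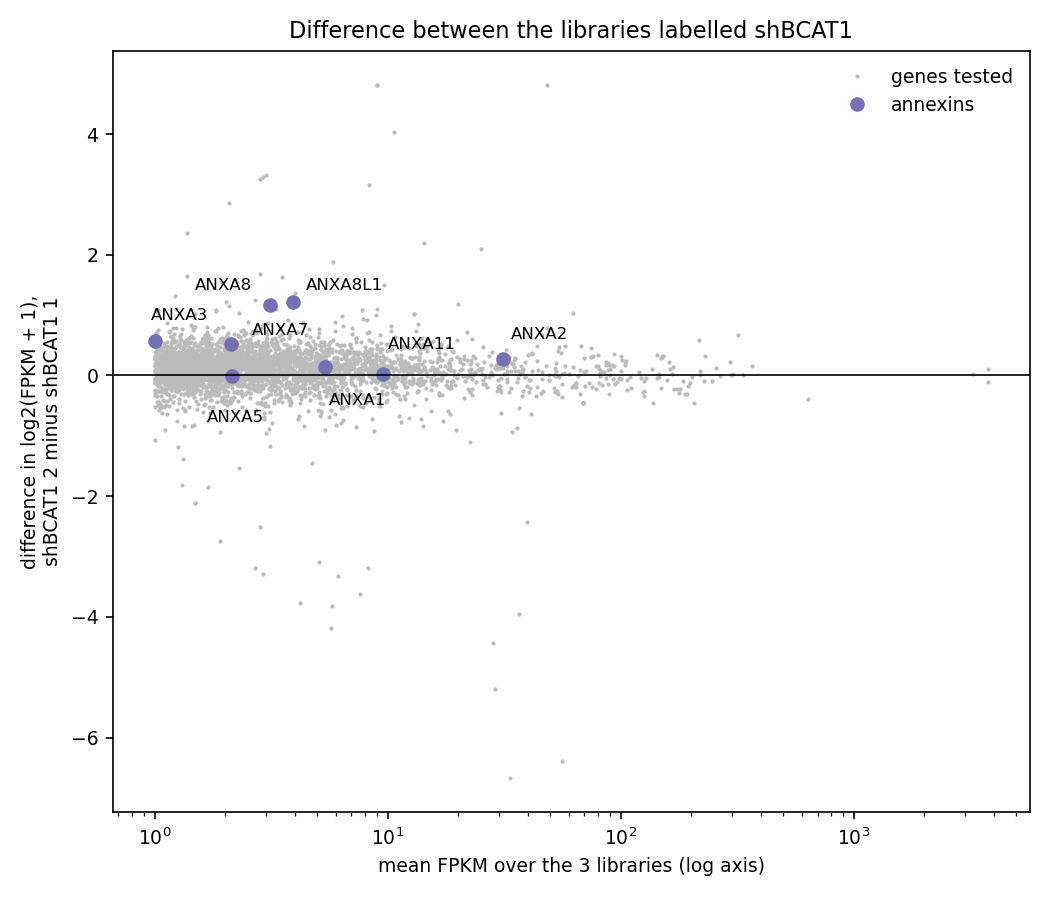
Difference in log2(FPKM + 1) of the library labelled shBCAT1 2 minus the library labelled shBCAT1 1 (vertical axis) against mean FPKM over the 3 libraries (log axis) for 3889 genes, with the 8 annexins tested in colour. ANXA8L1 and ANXA8 stand at 1.22 and 1.17, and the other 6 lie between -0.01 and 0.57.

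Promoter sequences, 250 bases before to 50 after a RefSeq start on GRCh38.p14, were found for 9 of 10 members, with none for ANXA8. The measured transcripts of ANXA3 and ANXA8L1 start at 78551588 and 46375590, upstream of the starts used here. Most of these 2 windows therefore lies downstream of the measured starts. The promoters of ANXA2, the most abundant member, and of ANXA3 and ANXA8L1, which with ANXA8 had bounds above the control's in the library labelled shBCAT1 2, are shown. Capitals mark matches on either strand. The TATA box was searched as TATAAA, which is in 11.53% of 35116 such promoters. The AP-1 motif was TGANTCA (7.71%), the GC box GGGCGG (45.0%), the E-box CACGTG (7.26%) and the CCAAT box CCAAT (34.6%). The 3 GGGCGG matches of ANXA2 overlap.
ANXA2 (chr15:60397937-60398236, minus strand): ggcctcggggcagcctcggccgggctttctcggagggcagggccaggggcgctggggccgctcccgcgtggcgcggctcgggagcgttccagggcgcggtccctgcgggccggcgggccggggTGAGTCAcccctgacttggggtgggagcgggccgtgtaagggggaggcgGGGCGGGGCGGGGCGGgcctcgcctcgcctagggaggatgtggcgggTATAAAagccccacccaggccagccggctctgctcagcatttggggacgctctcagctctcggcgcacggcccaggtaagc
ANXA3 (chr4:78551520-78551819, plus strand): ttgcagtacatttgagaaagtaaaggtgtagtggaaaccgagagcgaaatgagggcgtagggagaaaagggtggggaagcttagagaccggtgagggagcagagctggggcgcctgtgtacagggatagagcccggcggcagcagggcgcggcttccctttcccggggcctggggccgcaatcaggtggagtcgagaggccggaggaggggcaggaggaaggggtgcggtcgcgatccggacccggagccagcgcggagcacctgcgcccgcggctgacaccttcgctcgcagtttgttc
ANXA8L1 (chr10:46375526-46375825, plus strand): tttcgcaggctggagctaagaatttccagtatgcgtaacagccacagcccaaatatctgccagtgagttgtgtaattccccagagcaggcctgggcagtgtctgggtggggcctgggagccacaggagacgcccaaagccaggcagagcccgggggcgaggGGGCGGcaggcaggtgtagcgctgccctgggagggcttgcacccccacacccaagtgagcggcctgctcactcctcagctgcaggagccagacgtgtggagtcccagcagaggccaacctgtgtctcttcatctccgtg
The ANXA2 window holds 1 TATAAA, 1 TGANTCA and 3 GGGCGG matches and 32 CpG dinucleotides, and that of ANXA8L1 1 GGGCGG match and 10 CpG. That of ANXA3 has 25 CpG and none of these motifs. ANXA1, whose promoter is not shown, had 0 CpG, 1 TATAAA and 2 CCAAT matches, and the median over all promoters was 14 CpG. A match is a description of letters only.

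Among 7 S100 partners listed, 4 were above 10 FPKM in every library, and of these S100A4 differed most. S100A10, the partner of annexin A2, was at 27.4 FPKM (24.5 to 30.3) and 37.2 FPKM (33.9 to 40.4) in the libraries labelled shBCAT1 1 and 2, against 31.7 FPKM (28.6 to 34.9) in the control, overlapping it in both. S100A11, a partner of annexin A1, was at 34.4 FPKM (29.7 to 39.2) and 55.3 FPKM (49.5 to 61.2), against 47.9 FPKM (42.2 to 53.6) in the control. S100A6, which binds annexin A11, was at 73.4 FPKM (67.1 to 79.6) and 83.2 FPKM (76.7 to 89.7), against 102 FPKM (94.9 to 109.9) in the control. S100A4, which also binds annexin A2, was at 23.0 FPKM (18.3 to 27.7) and 10.2 FPKM (7.10 to 13.3), against 34.6 FPKM (29.04 to 40.2) in the control, with all bounds apart. S100A6 also lay below the control with bounds apart in both, and S100A11 with shBCAT1 1 only. Of the 4 genes, 3 had bounds below the control's with shBCAT1 1 and 2 with shBCAT1 2, beside 7.61% and 7.66% of the genes tested. In each library 0 had bounds above, beside 1.65% and 7.35%. Nothing is read from these counts about the list. In the test of these 4 genes 0 rose or fell by limma (adjusted p 0.797 for S100A4 and S100A6). Of all genes tested, 0% rose and 0.360% fell. S100A1 was listed at 0 and 0.779 FPKM in the libraries labelled shBCAT1 1 and 2, against 0.679 FPKM in the control. S100A12 was listed at 0 in both, against 0.504 FPKM in the control, and S100B at 0 throughout.

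Plasma membrane repair and caveolae are processes in which annexins act. Of 14 listed genes 8 were tested, and all 8 stood above the control in the library labelled shBCAT1 2, of which 2 had bounds apart, beside 50.8% and 7.35% of the genes tested. With the label shBCAT1 1, 4 were higher and 4 lower, beside 31.1% and 68.7%. There 0 had bounds above the control's and 0 below, beside 1.65% and 7.61% of the genes tested. CAPN1, the large subunit of a calpain, was at 8.37 and 12.5 FPKM in the libraries labelled shBCAT1 1 and 2, against 8.79 FPKM in the control. CAVIN1, a coat protein of caveolae, was at 7.56 and 11.1 FPKM, against 8.30 FPKM in the control. CAPNS1, the small calpain subunit, was at 20.1 and 21.5 FPKM, against 19.6 FPKM in the control, and EHD1, a membrane-shaping ATPase, at 5.68 and 6.47 FPKM, against 5.41 FPKM. The list's median difference was 0.0016 and 0.32, beside -0.12 and 0.01 for all genes tested. Nothing is read from these counts and medians about the list, which was chosen with earlier results of these data known. By limma 0 of the 8 rose or fell (adjusted p 0.836 to 0.970), beside 0% and 0.360% of all genes tested.

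Of 9 genes of plasminogen activation at the cell surface 5 were tested. By limma 0 of the 5 rose or fell, beside 0% and 0.360% of all genes tested. ENO1, a glycolytic enzyme that also binds plasminogen, was at 46.5 and 62.0 FPKM in the libraries labelled shBCAT1 1 and 2, against 53.0 FPKM in the control, with bounds apart on opposite sides. SERPINE2, a serpin that inhibits plasminogen activators, was at 4.198 and 2.82 FPKM, against 4.53 FPKM in the control, and the cathepsin gene CTSB at 1.97 and 1.72 FPKM, against 2.50 FPKM. PLAU, the gene of urokinase, was at 1.19 and 1.26 FPKM, against 1.07 FPKM in the control. PLG, the gene of plasminogen, was listed at 0 in every library.

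ALG-2 and ESCRT genes, whose products meet annexins A7 and A11 at damaged membranes, had 10 of 17 listed genes tested, with 9 lower in the library labelled shBCAT1 1 and 7 in that labelled shBCAT1 2, beside 68.7% and 49.0% of the genes tested. None of the 10 had bounds apart from the control's in either library. Of the genes tested, 1.65% were higher and 7.61% lower by this measure with shBCAT1 1, and 7.35% and 7.66% with shBCAT1 2. By limma 0 of the 10 rose or fell, beside 0% and 0.360% of the genes tested. Nothing is read from these counts about the list. Of the genes not tested, CHMP1B was at 0.344 FPKM (0.168 to 0.521) and 0.449 FPKM (0.253 to 0.644) in the libraries labelled shBCAT1 1 and 2, against 0.841 FPKM (0.561 to 1.12) in the control, below its bounds with shBCAT1 1. PDCD6, which encodes ALG-2, was at 5.85 and 7.76 FPKM in the libraries labelled shBCAT1 1 and 2, against 9.59 FPKM in the control. The ESCRT-III genes CHMP2A, CHMP4B and CHMP1A were at 34.4, 6.66 and 4.38 FPKM in the library labelled shBCAT1 1 and at 36.6, 7.69 and 4.43 FPKM in that labelled shBCAT1 2, against 42.6, 7.18 and 4.10 FPKM in the control.

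**Figure D5:**
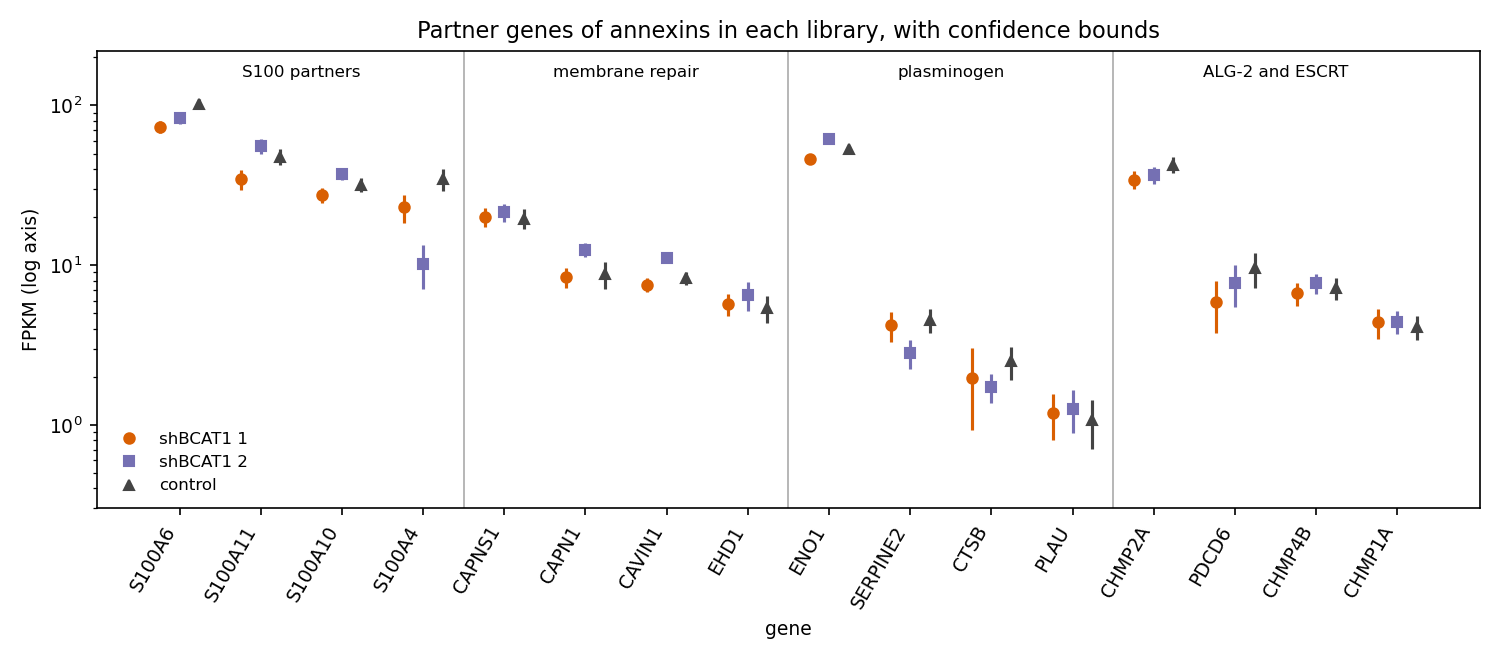
FPKM (vertical axis, log scale) of the 4 most abundant tested genes of each of 4 partner lists in the libraries labelled shBCAT1 1 and shBCAT1 2 and in the control, with confidence bounds as lines. S100A4 is lowest in the library labelled shBCAT1 2, at 10.2 FPKM, and CAPN1 and CAVIN1 are highest there, at 12.5 and 11.1 FPKM.

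The receptors of annexin A1, FPR1, FPR2 and FPR3, were listed at 0 in every library, as were PLA2G4A, the cytosolic phospholipase A2 that annexins inhibit in vitro, and ALOX5AP. Of the eicosanoid genes 3 of 9 were tested, PTGES, PTGES2 and PTGES3. PTGES, a prostaglandin E synthase, was at 13.6 and 12.4 FPKM in the libraries labelled shBCAT1 1 and 2, against 14.0 FPKM in the control. PTGES2 was at 8.05 and 8.54 FPKM, against 8.64 FPKM in the control, and PTGES3 at 4.18 and 4.81 FPKM, against 5.85 FPKM. Among scramblases and flippases, which set the phosphatidylserine exposure that annexin A5 reads, 1 of 9 was tested, PLSCR3, at 2.42 and 3.06 FPKM in the libraries labelled shBCAT1 1 and 2 against 4.08 FPKM in the control. Of kinases and Ras regulators that bind or modify annexins 2 of 6 were tested. EGFR was at 5.52 FPKM (4.63 to 6.40) and 6.23 FPKM (5.35 to 7.10), against 4.16 FPKM (3.56 to 4.77) in the control, and SRC at 1.33 and 0.996 FPKM, against 0.988 FPKM. PRKCD was at 0.999 and 0.815 FPKM, against 0.779 FPKM in the control, and RASA1, the gene of p120GAP, at 0.469 and 0.554 FPKM, against 0.318 FPKM. In these lists 0 genes rose or fell by limma, beside 0% and 0.360% of all genes tested.

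Annexins outside the 10 members were scarce. ANXA9 was at 0.398 and 0.264 FPKM in the libraries labelled shBCAT1 1 and 2, against 0.369 FPKM in the control. Its values were above those of ANXA6 in each library, with bounds that overlapped. ANXA10 was at 0.104 and 0.0981 FPKM, against 0.107 FPKM in the control. ANXA13 and ANXA2R, which encodes an annexin A2 receptor, were listed at 0 in every library.

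By Euclidean distance of log2(FPKM + 1) over the 3 libraries, a likeness set mostly by level, the protein-coding genes nearest to ANXA2 were OAZ1, GPX1 and TUBA1C, at 0.0872, 0.105 and 0.140. Those nearest to ANXA11 were EIF3B and ACTN1, at 0.0682 and 0.0756, and those nearest to ANXA1 were SNU13, EIF3L and UQCR11, at 0.0152, 0.0689 and 0.0829.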

How the data were processed

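RNA-seq of MTAC-P cells was given as 3 tables, 1 per library. Trim Galore, TopHat, Cufflinks and the build hg38 are named per the submitters' processing notes, without versions, settings or strand. The authors deposited FPKM per RefSeq transcript, with bounds. Of 50337 accessions, 49277 were named from RefSeq (GRCh38.p14) and 649 from GENCODE release 29, and FPKM was summed per gene. Bounds of a gene were taken as 2 SDs around the sum, with variances of its transcripts added. This is too wide where transcripts trade fragments. A total of 341 genes with a status other than OK were left out. log2(FPKM + 1) was fitted with limma 3.58.1 (R 4.3.3, intensity trend, two-sided, Benjamini-Hochberg) over 3889 genes whose mean reached 1 FPKM. With 1 residual degree of freedom, from the shBCAT1 pair, the single control was assumed to vary alike. On simulated data this fit missed most changes of 1 on the log2 scale and made more false calls than its threshold allows, so a gene that misses the threshold is not shown to be unchanged. The pseudocount understates changes of low genes. Members, lists and alternatives were chosen with earlier results of these data known. All members are named, with up to 4 genes per list by mean level (for scramblases and eicosanoid genes those tested), genes named after their values were seen (PLG, PLA2G4A, ALOX5AP, ANXA13, ANXA2R, ANXA2P3, S100A1, S100A12, S100B, CHMP1B), and the 3 genes nearest to each of the 3 most abundant members. Of the genes this rule names, 2 are not reported here. Coordinates are hg38. Plots used Python 3.11.15, pandas 2.3.3, numpy 2.4.6 and matplotlib 3.10.9.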

Additional observations from a re-analysis of the deposited data

How the results depend on the processing

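No paired analysis was possible because the control has 1 library. Of 110 differences of single annexins under other settings, 105 kept their direction, which settings that change only the filter or the sequences used could not alter. Where a test could be had, the adjusted p of limma for single annexins, the main values included, ran from 0.427 to 0.983, with 0 of 79 under 0.05. Direction turned for ANXA11 with median-of-ratios scaling (0.038), quantile normalization (0.18) and transcripts kept apart (0.052), for ANXA2 with quantile normalization (0.18), and for ANXA7, which was -0.22 without shBCAT1 replicate 2 and 0.31 without shBCAT1 replicate 1; the cause was not tested. The median over the 10 members, -0.12 for both libraries, was -0.034 with a pseudocount of 5, 0.12 with quantile normalization and -0.058 when scaled by median of ratios, and -0.16 to -0.05 with either library left out. For the library labelled shBCAT1 1 it was -0.31 and -0.062 with pseudocounts of 0.1 and 5, -0.015 with quantile normalization and -0.055 with the length trend removed. For the library labelled shBCAT1 2 it was 0.21 with quantile normalization and 0.071 with transcripts kept apart. With ANXA8 and ANXA8L1 summed it was -0.22 for the library labelled shBCAT1 1 and -0.094 for that labelled shBCAT1 2. Of all genes, 14 fell, against 0 with no filter, 8 at a minimum of 5 FPKM and 0 with transcripts kept apart, and 0 rose, against 1 with a pseudocount of 0.1 and 2 with the length trend removed. With 1 shBCAT1 library left out no test over genes remains. Depth is unknown, and values under about 1 FPKM rest on few fragments.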
